A study of Mus musculus with 6 samples.

Results

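The genes described here are those that make, degrade, bind and sense retinoic acid: the synthesizing enzymes Aldh1a2 and Aldh1a3, the degrading enzyme Cyp26b1, the binding proteins Crabp1 and Crabp2, and the nuclear receptors Rara, Rarb, Rarg, Rxra and Rxrg. They were chosen by name, and every probe set that the array annotation assigns to exactly 1 of these 10 genes was taken, which gave 15 of the 34945 probe sets assigned to a single gene (10 of 18193 genes). The samples were GFP-positive regions of the cervical spinal cord of 3 HB9::GFP transgenic mouse embryos of 1 litter at E11.5, cut out by laser capture separately on the left and on the right. Each embryo gave 1 left and 1 right pool, so the 2 groups hold 3 pools each and the series holds 6 arrays. All 6 pools carry the same transgene, in which the promoter of the motoneuron gene Mnx1 (HB9) drives GFP, and no untreated or non-transgenic pool was analysed here. The question was whether motoneurons of the 2 sides differ in gene expression.

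Retinoic acid is made from vitamin A in steps, of which the last is carried out by the Aldh1a enzymes, and it is removed by the Cyp26 enzymes. In the cell it is carried by the Crabp proteins and acts through pairs of a retinoic acid receptor (RAR) and a retinoid X receptor (RXR) that sit on direct repeats in the DNA of their target genes. In the embryonic spinal cord it patterns the neck region through Hox genes. Aldh1a2 is made in paraxial mesoderm and, within the cord, by motoneurons that supply the limbs.

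Values are MAS5 signals, an intensity on a linear scale that the authors' software set to the same trimmed mean of 500 on every array. The level of 1 probe set cannot be set against that of another, so levels are compared between pools only. The motoneuron markers (Mnx1, Isl1, Isl2, Chat, Slc18a3, Lhx3 and Lhx4) all reached a signal of 200 in at least 1 pool. Their summed signal was 18965 left and 18084 right in embryo 1. It was 16863 and 15295.5 in embryo 2 and 14209 and 13962 in embryo 3. The right pool of embryo 1 stood apart in mesenchyme genes. Of 19 mesenchyme markers, 12 reached 200 in at least 1 pool. The summed signal of all 19 was 2678 left and 19929 right in embryo 1. It was 1452 and 3437 in embryo 2 and 2795 and 2805 in embryo 3. Col1a2, a fibrillar collagen and the brightest of them, read 882 left and 8264 right in embryo 1. Because each pool is a piece of tissue, fewer cells of a type and less RNA per cell cannot be told apart.

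No gene of retinoic acid synthesis, binding or reception was called different between the right and the left. Tests were limited to probe sets that reached a signal of 200 in at least 1 pool, which held for 10 of the 15 probe sets and for 9 of the 10 genes. Aldh1a3 had none, and 1 further probe set each of Rarg and Rxra was also under that limit. By the fold rule of the study's methods (all 3 embryos in 1 direction, with the mean log2 ratio of right to left and those of 2 or more embryos past 0.58), 0 of the 10 were higher on the right and 0 higher on the left, against 2.4% and 1.55% of all 21853 tested probe sets. In a limma fit with side and embryo as terms, 0 of the 10 had an adjusted p under 0.05, and neither had any other probe set on the array (0%). At an unadjusted p under 0.05 the count was 0 of 10, against 3.4% of all tested.

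The 10 tested probe sets had mean log2 ratios from -1.13 (Rara) to 0.49 (Rxra), with a median of 0.07, and the median over all tested probe sets was 0.02. In 8 of the 10 the embryos disagreed in direction. The other 2, both of Rxra, were higher on the right in every embryo, which makes 20% of the 10 with 1 direction throughout, against 23.5% of all tested. With 3 embryos an exact two-sided sign-flip test cannot go below p = 0.25, and that was its value for both.

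**Figure D1:**
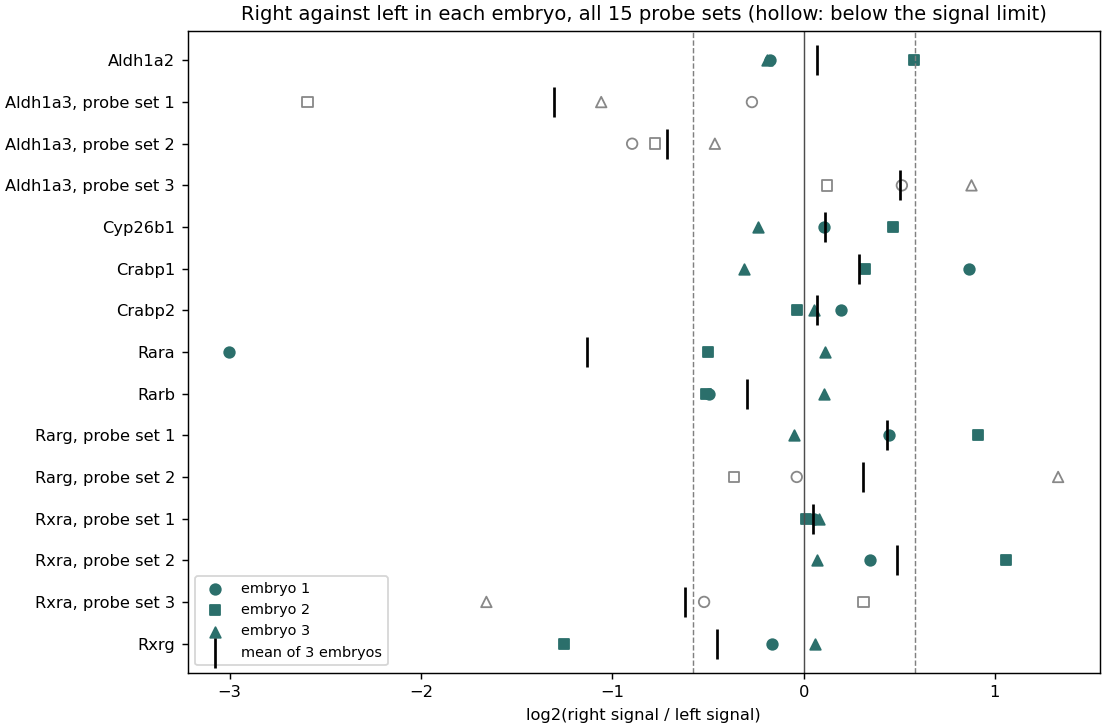
The log2 ratio of right to left signal (x axis) in embryos 1 (circle), 2 (square) and 3 (triangle) is plotted for all 15 probe sets of the 10 genes, with the mean as a vertical mark. Hollow symbols are the 5 probe sets under the signal limit and dashed lines stand at 0.58 in both directions. Most rows straddle 0, and the widest spread is that of Rara.

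Aldh1a2 (chr9:71215789-71296243, GRCm38.p6), which encodes the main retinoic acid synthesizing enzyme of the embryonic trunk, had 1 probe set. It read 975 left and 865 right in embryo 1, with 45.9 and 68.5 in embryo 2 and with 402 and 352 in embryo 3. The right pool was the lower in embryos 1 and 3 and the higher in embryo 2, and the ranges of the 2 sides overlapped almost completely. The log2 ratio of right to left was 0.07 ± 0.44 (SD, n = 3), with a 95% interval from -0.64 to 0.78 in the limma fit (adjusted p = 0.993). Its sign turned with quantile normalization, with median scaling and with 50 added to each signal. In embryo 1, where the summed mesenchyme markers were higher on the right by 2.90 on the log2 scale, Aldh1a2 was not (log2 ratio -0.17), and the part of mesenchyme in the Aldh1a2 levels was not tested.

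What separated the Aldh1a2 values was the embryo. Both pools of embryo 1 were higher than both pools of embryo 3, which were higher than both pools of embryo 2. The geometric mean of the 2 pools was 919 in embryo 1, 376 in embryo 3 and 56.1 in embryo 2, and the ratio of embryo 1 to embryo 2 was 16.4, or 4.03 on the log2 scale (SE 0.38). Both pools of embryo 2 read under 200, so the size of this ratio rests on signals below the limit, and with 50 added to each signal it was 3.18 on the log2 scale. Embryo 1 exceeded embryo 3 by 1.29 and embryo 3 exceeded embryo 2 by 2.75 on that scale. For comparison, the median range between embryos was 0.49 over all tested probe sets. A limma F test of the embryo term, chosen after these values had been seen, gave Aldh1a2 an adjusted p of 0.0163. It called 59 of the 21853 probe sets (0.27%), and Aldh1a2 was the only 1 of the 10 tested here among them. The call was lost when variances were fitted without a trend on the signal (adjusted p = 0.165) and when probe sets of any signal were tested (0.0539). Since the pools of an embryo share the animal and the sections, this test sets 3 single embryos against the spread between their sides and says nothing of a group of animals.

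**Figure D2:**
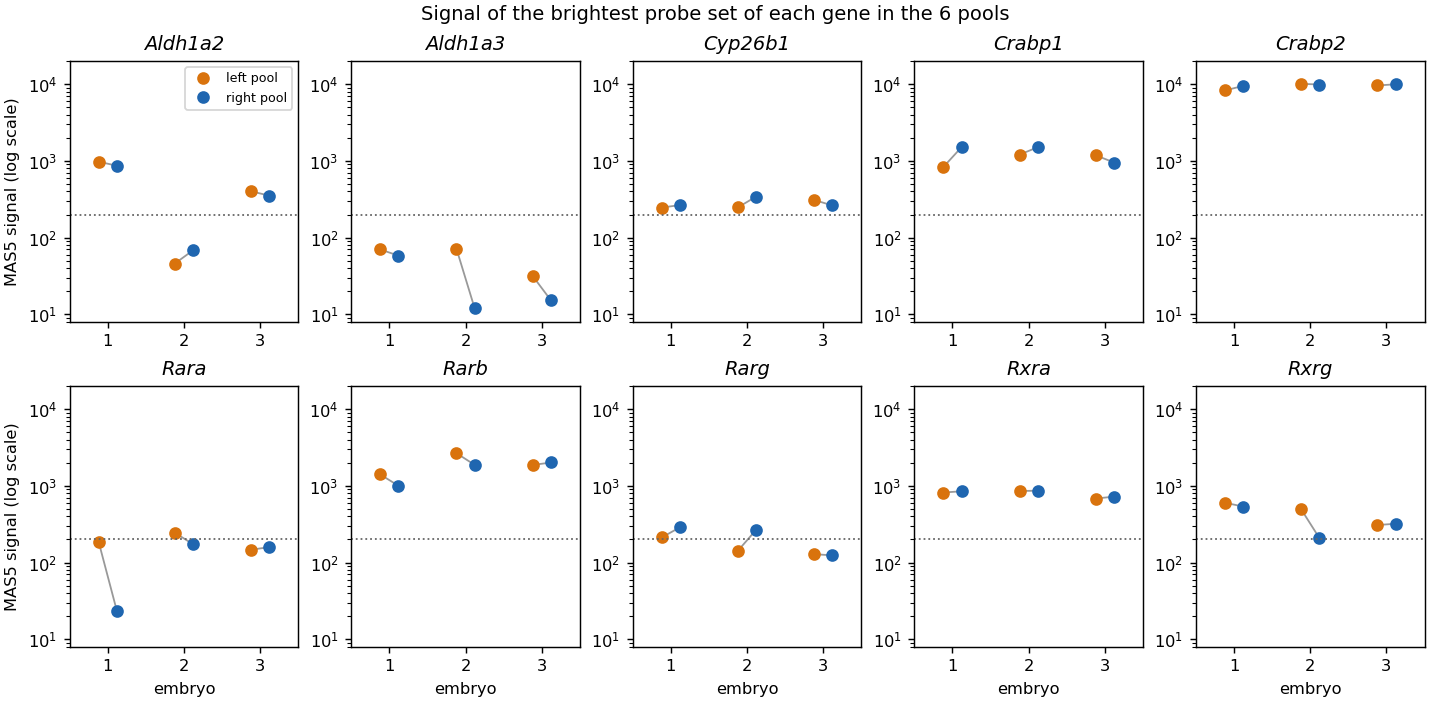
MAS5 signal (log axis) of the brightest probe set of each of the 10 genes is plotted by embryo, with the left pool in orange, the right pool in blue and a line joining the pools of an embryo. The dotted line is the signal limit of 200. Aldh1a2 falls from 975 and 865 in embryo 1 to 45.9 and 68.5 in embryo 2, with the 2 pools of each embryo side by side.

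Some markers of limb-level motoneurons had the same order of embryos as Aldh1a2. Of the limb-level list (Foxp1, Lhx1, Etv4, Hoxc6 and Hoxc8), 3 of 5 reached 200, and its summed signal was 3747 left and 3127 right in embryo 1, with 1564 and 3014 in embryo 2 and with 3169 and 2716 in embryo 3. Hoxc6, a Hox gene of the forelimb level, read 746 and 464 in embryo 1 in its brightest probe set. That probe set read 68.9 and 144 in embryo 2 and 359 and 361 in embryo 3, which is the order of Aldh1a2. It was not called by limma (embryo term, adjusted p = 0.0977). Hoxc6 had another tested probe set, whose order of embryos is not reported here. Foxp1, a cofactor of Hox proteins in limb-innervating motoneurons, had 6 tested probe sets, of which 1 was called between embryos by limma (adjusted p = 0.03). That probe set read 1832 and 1321 in embryo 1, with 441 and 349 in embryo 2 and with 1134 and 1001 in embryo 3. The brightest Foxp1 probe set was also highest in both pools of embryo 1 (1799 left and 1666 right), but its right pool read higher in embryo 2 (894) than in embryo 3 (759.7). By geometric mean, 5 of the 6 had the order of Aldh1a2, and the other, at 213 in embryo 2 and 212 in embryo 3, did not separate those embryos. Lhx1, which marks lateral motoneurons of the limb columns, did not share the order. Its brightest probe set read 1172 and 870 in embryo 1, with 1143 and 1939 in embryo 2 and with 1986 and 1567 in embryo 3. Etv4 and Hoxc8 stayed under 200 in every pool.

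The markers of cervical and phrenic motoneurons did not follow Aldh1a2 as a list. All 5 (Pou3f1, Alcam, Hoxa5, Hoxc5 and Ret) reached 200, and their summed signal lay between 14740.5 and 15212.5 on the left and between 14759.5 and 16109 on the right. That sum joins genes that differed in opposite directions between embryos. By geometric mean, the brightest probe set of Pou3f1 was highest in embryo 1 (3571, against 2427 and 2232 in embryos 2 and 3). That of Hoxc5 was lowest there (4515, against 6202 and 6235). Neither was called between embryos by limma. Within that list Alcam, a cell adhesion molecule, was called between embryos by limma in 2 probe sets (adjusted p = 0.0284 in both). The brighter read 1998 and 1922 in embryo 1, with 705 and 491 in embryo 2 and with 492 and 437 in embryo 3. The dimmer read 1935 and 1819 in embryo 1, with 492 and 398 in embryo 2 and with 612 and 589.7 in embryo 3, which is the order of Aldh1a2. By geometric mean, 3 of the 4 tested Alcam probe sets had that order. The 59 called probe sets also held Xist, an RNA of the inactive X chromosome, which in 1 of its probe sets read 3845 left and 2768 right in embryo 2 and at most 80.5 in the other embryos. Also among the 59 was Eif2s3y, a gene of the Y chromosome, which read 1592 left and 569 right in embryo 1. It read 0.521 and 3.08 in embryo 2 and 1000 and 1267 in embryo 3. The labels give no sex and no position of the sections along the cord for any embryo, and the part of either in the Aldh1a2 levels was not tested.

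**Figure D3:**
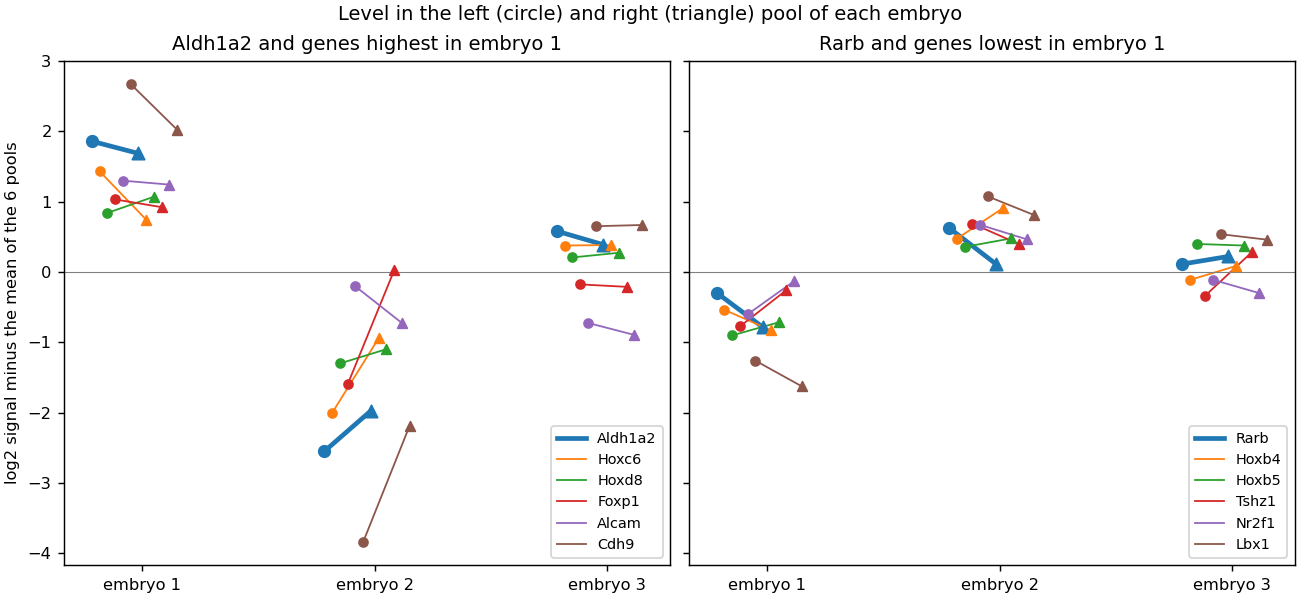
Log2 signal minus the mean of the 6 pools (y axis) is plotted for Aldh1a2 and 5 genes highest in embryo 1 (left panel) and for Rarb and 5 genes lowest in embryo 1 (right panel), with circles for left pools, triangles for right pools and a line joining the pools of an embryo. The companion genes were picked for display after their values were seen. In embryo 2 the Aldh1a2 pools lie below those of the plotted genes of their side other than Cdh9, and in embryo 1 both Rarb pools lie under 0.

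Over the 6 pools, the 4 genes whose log2 signal was most like that of Aldh1a2, among 10538 genes compared by their brightest tested probe set, were Hoxd8 (Pearson r = 0.993), Antxr1 (0.992), Cdh9 (0.992) and Pnoc (0.987). Hoxd8, a Hox gene, read 487 and 571 in embryo 1, with 110 and 127 in embryo 2 and with 314 and 329 in embryo 3. Cdh9, a cadherin, read 909 and 579 in embryo 1, with 9.95 and 31.3 in embryo 2 and with 224 and 226 in embryo 3. Hoxc6 gave r = 0.972 with Aldh1a2, the mesenchyme gene Col1a2 0.615 and Rarb -0.79. These are descriptions over 6 pools of 3 embryos, in which the pools of an embryo are not independent.

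Aldh1a3 (chr7:66390892-66427477, GRCm38.p6), another synthesizing enzyme, read under 200 in every pool in all 3 of its probe sets, so it was not tested. The brightest read 70.1 left and 58.2 right in embryo 1, with 72.0 and 11.9 in embryo 2 and with 31.6 and 15.2 in embryo 3. The right was lower in each embryo (mean log2 ratio -1.31 ± 1.18, SD, n = 3). In the next brightest the right was again lower in each (-0.71 ± 0.22), at 111 left and 59.7 right in embryo 1 and at most 6.09 in the other 4 pools. The third went the other way in each embryo (0.50 ± 0.38), with signals from 9.5 to 17.9. The probe sets of Aldh1a3 thus disagreed in direction. With no signal limit the first 2 of them met the fold rule on the left, as did 1696 of all 45037 probe sets.

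Cyp26b1 (chr6:84571414-84593908, GRCm38.p6), an enzyme that clears retinoic acid, read 246 left and 266 right in embryo 1, with 248 and 343 in embryo 2 and with 309 and 262 in embryo 3. The pools of the 2 sides overlapped. Its log2 ratio was 0.11 ± 0.35 (SD, n = 3), with a 95% limma interval from -0.57 to 0.80 (adjusted p = 0.985). Between embryos its geometric means differed by at most 1.14-fold.

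Of the binding proteins, Crabp2 had the narrowest interval among the 10 tested probe sets. Crabp2 (chr3:87948693-87953372, GRCm38.p6), which delivers retinoic acid to nuclear receptors, read 8282 left and 9493 right in embryo 1, with 10123 and 9889.8 in embryo 2 and with 9614 and 9972 in embryo 3. Its log2 ratio was 0.07 ± 0.12 (SD, n = 3), and the 95% limma interval ran from -0.19 to 0.33. That interval lies within the limit of 0.58 in both directions. Between embryos its geometric means differed by 1.13-fold at most.

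Crabp1 (chr9:54764748-54773110, GRCm38.p6), a cytosolic retinoic acid carrier, varied more. It read 829 left and 1511 right in embryo 1, with 1207 and 1508 in embryo 2 and with 1182 and 953 in embryo 3. The right pool was higher in embryos 1 and 2 and lower in embryo 3, giving log2 ratios of 0.87, 0.32 and -0.31, with a mean of 0.29 ± 0.59 (SD, n = 3; 95% limma interval -0.25 to 0.83). The summed mesenchyme markers had log2 ratios of 2.90, 1.24 and 0.01 in the same embryos, and their part in the Crabp1 values was not tested. Without embryo 1 the mean log2 ratio of Crabp1 was 0.005. The 4 genes most like Crabp1 over the 6 pools were Ttyh2 (r = 0.986), Yif1b (0.983), Sem1 (0.983) and Inpp5j (0.982).

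Among the receptors, Rarb (chr14:16430839-17082331, GRCm38.p6) is itself a classical target of retinoic acid. It read 1411 left and 1002 right in embryo 1, with 2669.7 and 1875 in embryo 2 and with 1869.6 and 2017 in embryo 3. The left pool was the higher in embryos 1 and 2 and slightly the lower in embryo 3. The log2 ratios of right to left were -0.49, -0.51 and 0.11, with a mean of -0.30 ± 0.35 (SD, n = 3) and a 95% limma interval from -0.72 to 0.12 (adjusted p = 0.974). Rarb was lowest in embryo 1, with geometric means of 1189, 2238 and 1942 in embryos 1, 2 and 3. That range of 0.91 on the log2 scale was not called by limma over all probe sets (adjusted p = 0.171).

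The RefSeq promoter window of Rarb was searched for a retinoic acid response element because RARs bind there, and the same search was made in every promoter window. The element was taken as a pair of half-sites in the same orientation, with 5 bases between them, on either strand. The half-sites allowed were AGGTCA, which is the consensus, then GGGTCA and also AGTTCA, and finally GGTTCA. Windows reach from 250 bases before to 50 bases after a gene's start. The only member window with a match was that of Rarb, 1 of 14 windows for 8 of the 10 genes (Aldh1a3 and Crabp2 had no entry), and 32 of 32851 windows of all genes held one (0.0974%). A single half-site was in 7 of the 14 windows and in 43.7% of all. Cyp26a1, a retinoic acid degrading enzyme and another well-known direct target whose window held a match, is shown beside Rarb. Capitals mark the match, which lies 53 to 37 bases before the start of Rarb, and 32 to 16 bases before that of Cyp26a1, where it is on the opposite strand.
Rarb, chr14:16575493-16575569, minus strand, GRCm38.p6: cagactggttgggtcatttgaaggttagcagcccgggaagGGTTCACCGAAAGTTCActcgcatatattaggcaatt
Cyp26a1, chr19:37697736-37697807, plus strand, GRCm38.p6: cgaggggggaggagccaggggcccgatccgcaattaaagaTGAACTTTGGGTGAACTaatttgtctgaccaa
The probe set of Cyp26a1 stayed under the limit in every pool, at 59.0 left and 90.4 right in embryo 1, with 19.6 and 56.3 in embryo 2 and with 12.4 and 7.65 in embryo 3. A match is a description of the letters and does not show that a receptor is bound.

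Rara (chr11:98927800-98974942, GRCm38.p6), the receptor most widely made in the embryo, had a mean difference that came from 1 pool. It read 187 left and 23.4 right in embryo 1, with 245 and 173 in embryo 2 and with 147 and 159 in embryo 3. The right pool of embryo 1 was far lower than the other 5. The log2 ratios were -3.00, -0.50 and 0.11, with a mean of -1.13 ± 1.65 (SD, n = 3) and a 95% limma interval from -2.62 to 0.36 (adjusted p = 0.974). Since 23.4 is far below the signal limit, the size of this ratio is uncertain, and with 50 added to each signal the mean was -0.67. Without embryo 1 it was -0.19.

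Rarg (chr15:102234938-102257522, GRCm38.p6), a receptor found mostly in mesenchyme and skin, read 212 left and 289 right in embryo 1, with 143 and 269 in embryo 2 and with 129 and 124 in embryo 3 in its tested probe set. The right was higher in embryos 1 and 2 and about equal in embryo 3. The mean log2 ratio was 0.43 ± 0.48 (SD, n = 3), with a 95% limma interval from -0.45 to 1.32. The sums of the mesenchyme markers were also higher on the right in embryos 1 and 2 and about equal in embryo 3, and their part in the Rarg values was not tested. The other Rarg probe set had signals of at most 68.6 and was not tested.

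Rxra (chr2:27676445-27763319, GRCm38.p6) encodes a common partner of the retinoic acid receptors. Its brighter probe set read 819 left and 849 right in embryo 1, with 857 and 864 in embryo 2 and with 684 and 724 in embryo 3. Its log2 ratios were 0.05, 0.01 and 0.08 (mean 0.05 ± 0.04, SD, n = 3; 95% limma interval -0.38 to 0.48), and with median scaling the mean turned to -0.04. The dimmer tested probe set read 168 left and 213 right in embryo 1, with 126 and 262 in embryo 2 and with 199.7 and 209.7 in embryo 3. It was higher on the right in every embryo, by 0.34, 1.06 and 0.07 on the log2 scale (mean 0.49 ± 0.51; 95% limma interval -0.37 to 1.35). The 2 probe sets agreed in direction but not in size, and 1 further probe set read at most 48.7.

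Rxrg (chr1:167598362-167639623, GRCm38.p6), a retinoid X receptor found in motoneurons and muscle, read 603 left and 538 right in embryo 1, with 497 and 209 in embryo 2 and with 308 and 321 in embryo 3. The right pool of embryo 2 was the lowest of the 6. The mean log2 ratio was -0.45 ± 0.70 (SD, n = 3), with a 95% limma interval from -1.16 to 0.26. Without embryo 2 the mean was -0.05.

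The 4 genes most like Rarb over the 6 pools were Taf6 (r = 0.992), Pou5f2 (0.991), Atf2 (0.989) and Mad2l2 (0.988). Atf2, a transcription factor, read 4772 left and 3976 right in embryo 1, with 6806 and 5707 in embryo 2 and with 5691 and 5519.7 in embryo 3. Among Hox genes that respond to retinoic acid the order varied, and both tested probe sets of Hoxa5 had their lowest geometric mean in embryo 2, whereas Hoxb5 and Hoxb4 had theirs in embryo 1. Hoxb5 read 4847 and 5513 in embryo 1, with 11597 and 12612 in embryo 2 and with 11934 and 11756 in embryo 3, and it was the only 1 of the other pathway genes called between embryos by limma (adjusted p = 0.0223). Hoxb4 read 499.8 and 409 in embryo 1, with 1008 and 1366 in embryo 2 and with 670.1 and 770.2 in embryo 3 (adjusted p = 0.123, not called). Hoxb5 correlated with Rarb at 0.81 and with Aldh1a2 at -0.747 over the 6 pools.

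Further genes of the pathway were taken from lists of 68 genes, of which 60 had a probe set of their own. In these, 77 of 137 probe sets were tested, for 38 genes. Of the 77, 2 met the fold rule on the right and 1 on the left, 0 had an adjusted p under 0.05 in the limma fit, and 2 had an unadjusted p under 0.05. As shares these lie near the 2.4%, 1.55% and 3.4% of all tested probe sets. Their median mean log2 ratio was 0.06.

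**Figure D4:**
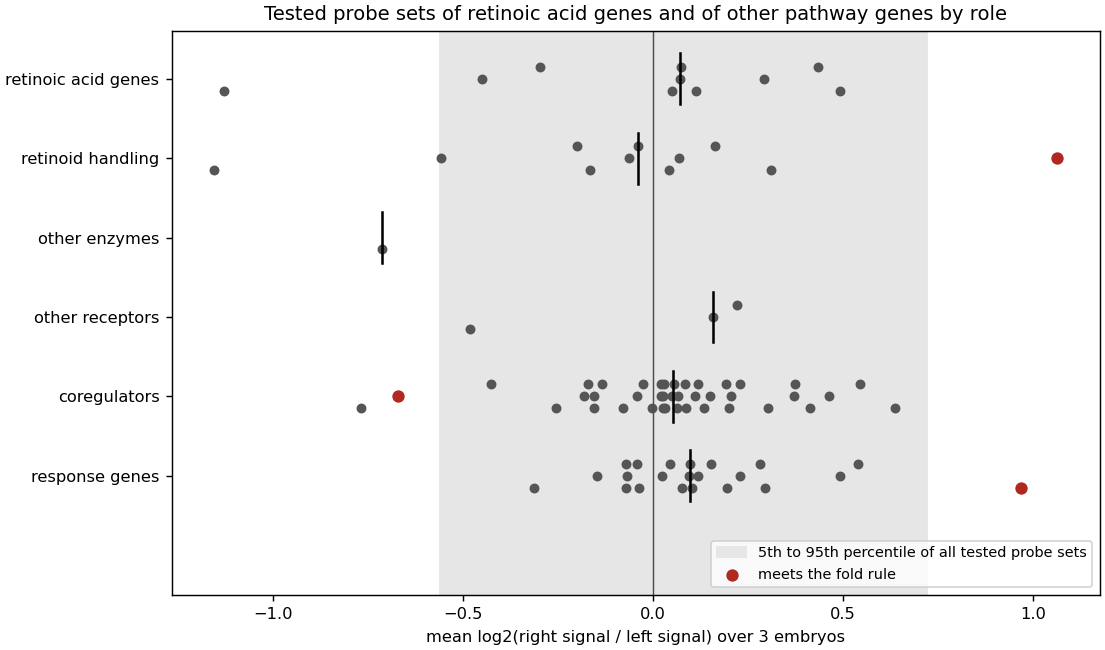
Each point is the mean log2 ratio of right to left over 3 embryos (x axis) of a tested probe set, by role (rows), with the median as a vertical line, the 5th to 95th percentile of all tested probe sets in grey and probe sets that met the fold rule in red. The 10 probe sets of the retinoic acid genes have a median of 0.07, and 1 of them, Rara at -1.13, lies outside the grey band.

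Among enzymes and carriers that handle retinol and its esters, 11 probe sets of 7 genes were tested, 1 of which met the fold rule on the right. That was 1 of 2 probe sets of Dgat1, an acyltransferase that can esterify retinol (1.06 ± 0.70 on the log2 scale), with signals between 38.8 and 244, whereas the brighter one gave -0.04. Rdh11, a retinal reductase, read 1153 left and 834 right in embryo 1, with 945 and 414 in embryo 2 and with 536 and 530.2 in embryo 3. Its mean log2 ratio was -0.56 ± 0.59 (SD, n = 3; 95% limma interval -1.14 to 0.03) in this probe set, the brighter of 2 tested. The dimmer one gave -0.20 ± 0.02. Rdh10, which makes the retinal that Aldh1a2 uses, had embryos that disagreed (log2 ratios -0.58, 1.21 and 0.30). Of the other enzymes only Aldh1a7, an aldehyde dehydrogenase related to Aldh1a1, reached 200, in embryo 3 alone (263 left and 275 right, against at most 39.3 elsewhere). Its mean log2 ratio was -0.71 ± 0.67.

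Of the other receptors and carriers, Rxrb, the remaining retinoid X receptor, read 1235 left and 763 right in embryo 1, with 1477 and 1087 in embryo 2 and with 1349 and 1087 in embryo 3. Every left pool was above every right pool. The log2 ratio was -0.48 ± 0.20 (SD, n = 3), with a 95% limma interval from -0.89 to -0.07 (unadjusted p = 0.026, adjusted p = 0.974), so it passed neither the fold rule nor the limma threshold. Fabp5, which carries retinoic acid to Ppard, gave 0.16 ± 0.24 at signals from 13178 to 17357. Rxra and Rxrg, the other 2 RXR genes, had means of 0.05 and -0.45 in their brightest probe sets, and the difference between the RXR genes was not tested.

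The coregulators held 40 tested probe sets of 16 genes, 0 of which met the fold rule on the right and 1 on the left. That was 1 of 6 tested probe sets of Med1, a Mediator subunit that nuclear receptors bind (-0.67 ± 0.31). The brightest Med1 probe set gave 0.00 at signals from 2095 to 2890.4. The largest mean ratios in the brightest probe set of a coregulator were those of Ncoa2, a nuclear receptor coactivator (0.41 ± 0.42), and Zfp423, a zinc finger protein of the RAR complex (0.23 ± 0.53). Neither was called.

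Genes known to respond to retinoic acid held 22 tested probe sets of 12 genes, with 1 that met the fold rule, on the right. This was Pax6, a transcription factor of spinal cord progenitors, which read 77.4 left and 174 right in embryo 1, with 217 and 418 in embryo 2 and with 106 and 184 in embryo 3. The right was higher in each embryo (0.97 ± 0.19 on the log2 scale, SD, n = 3; 95% limma interval 0.09 to 1.85; adjusted p = 0.974). Its other 4 probe sets did not reach 200. Neurog2, a proneural factor, gave 0.54 ± 0.63 and was not called. The sums of roof plate and dorsal progenitor markers, of which 3 of 7 reached 200, were likewise higher on the right, at 367 and 2259, 380 and 1178, and 636 and 788 in embryos 1, 2 and 3. Those of the ventral progenitor markers, a list that includes Pax6, were 3359 and 4093, 5820 and 6098, and 6318 and 5746. They were thus lower on the right in embryo 3. The summed mesenchyme markers had log2 ratios of right to left of 2.90, 1.24 and 0.01 in embryos 1, 2 and 3. The part of any of these lists in the Pax6 values was not tested. The Hox and Meis genes of this list, which set position along the cord, had mean log2 ratios from -0.31 (Meis2) to 0.23 (Meis1) over all of their tested probe sets.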

How the data were processed

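RNA of 3 left and 3 right laser-captured pools was amplified by the authors and run on Affymetrix mouse arrays. The deposited table holds linear signal intensities that the authors computed with MAS5 in Affymetrix Expression Console (version not given in the sources used here). Array medians ran from 99.9 to 118, and the number of arrays limits the precision. Detection calls were not used here, and neither was the study's filter on them.

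Of 45101 probe sets, 64 controls were left out. Those with a highest signal of at least 200 were tested (21853), on log2 signals with no added constant. limma 3.58.1 (R 4.3.3) was fitted with side and embryo as terms and a variance trend, with Benjamini-Hochberg adjustment over all tested probe sets. Left and right pools came from the same sections and were paired by embryo; with side means removed, the correlation between the pools of an embryo was 0.241, 0.215 and 0.495 in embryos 1, 2 and 3. The F test of the embryo term was added after the data were seen. The method was tested on simulated data. Gene names came from the platform annotation, and positions and promoter windows from RefSeq (GRCm38.p6).

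The 10 genes and the lists were chosen with earlier results of these data known. Named are all 10 genes, pathway genes that met the fold rule, the 2 genes per list with the largest ratio in their brightest probe set, the 4 genes most like Aldh1a2, Rarb and Crabp1, and markers of lists that moved with a member. Other genes were named after their values were seen. Some listed pathway genes are not reported here. The summed ventral progenitor, floor plate, dorsal interneuron, endothelium and erythroid markers ran from 3359 to 6318, 333 to 1525, 516 to 1646, 1279 to 2623 and 20254 to 37430.1. Results were recomputed with quantile normalization, with median scaling, with 50 added to each signal and with other signal limits, other fold rules, no embryo term, no variance trend, the mean over the probe sets of a gene and each embryo left out.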

Additional observations from a re-analysis of the deposited data

How the results depend on the processing

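No probe set of the retinoic acid genes met the fold rule or the limma threshold under any alternative run, apart from 2 probe sets of Aldh1a3 that met the rule on the left once the signal limit was dropped (count 2). Of 90 mean ratios of their 15 probe sets under other settings, 87 moved by less than 1 SD and 8 changed sign (3 with an embryo left out). In 45 of the 90 an embryo was left out. Leaving out 1 of 3 ratios cannot move their mean by 1 SD of the 3, so those 45 could not fail this criterion. Median scaling moved the median of all tested probe sets from 0.02 to -0.07.

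Counts over all tested probe sets moved more. By the fold rule, 524 were higher on the right and 338 on the left. These became 333 and 197 with 50 added to each signal, 2805 and 1696 with no signal limit, 131 and 104 with a limit of 500, 234 and 176 with a limit on the mean, 191 and 95 with a 2-fold limit, 84 and 49 when the limit had to be passed in all 3 embryos, and 211 and 124 with gene means. With 1 embryo left out they ran from 144 to 986 (without embryo 1 and without embryo 3) and from 143 to 607 (without embryo 2 and without embryo 3), and limma called 0 to 21 (21 without embryo 2). For the other pathway genes, 2 on the right and 1 on the left became 9 and 2 with no signal limit, 0 and 0 with a limit of 500, 0 on the right with a limit on the mean, 1 and 0 with the 2-fold limit, in all 3 embryos or with gene means, and 0 on the left with 50 added. With 1 embryo left out they ran from 0 to 4 and from 0 to 2.

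Without the replicate block (no embryo term), limma called 0 probe sets, as with it, and the counts at an unadjusted p under 0.05 fell from 742 to 320 overall and from 2 to 1 among the other pathway genes.

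The adjusted p of Aldh1a2 between embryos was 0.0539 with no signal limit and 0.1645 with no variance trend. Under the other settings it lay between 0.00113 and 0.0267, and between 0.00261 and 0.0279 with 1 embryo left out. Its log2 range between embryos was 4.03, or 3.18 with 50 added. The count of 59 probe sets became 97 with quantile normalization, 249 with median scaling, 165 with 50 added, 14 with no signal limit, 38 with a limit on the mean, 0 with no variance trend and 16 with gene means, and ran from 12 to 1291 with 1 embryo left out (12 without embryo 3, 1067 without embryo 1, 1291 without embryo 2). The cause of these changes was not tested. At signals near 200, such as those of Rara and Rarg, intervals over 3 embryos span more than the fold limit. Intervals also reached past 0.58 at higher signals, as for Rarb, Crabp1, Aldh1a2 and Rxrg. Among the 10 tested probe sets, only those of Crabp2 and the brighter 1 of Rxra had intervals within 0.58 in both directions.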
